A study of Mus musculus with 17 samples.

Results

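The ligands Gas6 and Pros1 (protein S) and their receptors Axl, Mertk and Tyro3 were followed in 17 single-cell RNA-Seq libraries, 8 of mouse skin and 9 of mouse kidney. The 5 genes were taken by name from the 30406 genes present in both gene lists of the count matrices. The family was chosen by the measured level of Gas6, which was lower after bleomycin in skin stromal cells, so that 1 comparison is described here without a test.

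Gas6 and protein S are secreted proteins whose gamma-carboxylated end binds phosphatidylserine on dying cells and whose other end binds the TAM receptor tyrosine kinases. Axl binds Gas6, whereas Mertk and Tyro3 bind both ligands. Through these receptors macrophages engulf dying cells and damp inflammatory signalling, and in skin and kidney the family has been studied in wound repair and fibrosis.

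All mice carried PDGFRb-Cre and the Z/EG reporter, so that cells in which the PDGFR-β promoter is or once was active express GFP, and GFP+ cells were sorted after digestion of the tissue. SARATg mice also carried human ZFYVE9 cDNA, which encodes SARA, behind the CAG promoter and a lox-stop-lox cassette at Rosa26, and SARAWT mice did not. Mice were 8 weeks old. In skin, 20 mg/kg bleomycin or PBS was injected under the skin 3 times a week for 2 weeks according to the labels, whereas the study's methods give daily injections. The skin libraries were 3 SARAWT PBS, 3 SARAWT bleomycin, 1 SARATg PBS and 1 SARATg bleomycin. In kidney, 5 mg/kg aristolochic acid, a nephrotoxin, or vehicle was injected into the peritoneum 3 times a week for 3 weeks. The kidney libraries were 3 SARAWT vehicle, 3 SARAWT aristolochic acid, 2 SARATg vehicle and 1 SARATg aristolochic acid. This Cre is also active in leukocytes, so the sorted cells held many immune cells and the transgene was not limited to pericytes.

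Each library held 776 to 9245 cells after filtering and 3355217 to 137093834 UMIs (unique molecular identifiers, 1 per captured RNA molecule). Cells were assigned to a class by its marker genes, and the level of a gene is given as CPM, its count of UMIs per 1000000 UMIs of that class in that library. Replicates are separate libraries by their labels, which do not say whether each came from its own mouse, so p-values measure only the spread between libraries. The transgene went against the label in 4 libraries. Of the libraries labelled SARAWT, skin PBS 1 held the human ZFYVE9 entry at 839 CPM (86.9 to 189 CPM in the other 3 skin libraries with that entry) and skin PBS 3 held Zfyve9 at 614 CPM, above 314 and 222 CPM in the libraries labelled SARATg. In kidney, the library labelled SARAWT aristolochic acid 1 held Zfyve9 at 159 CPM and the library labelled SARATg aristolochic acid 1 at 19.5 CPM, against 99.5 and 94.3 CPM in the libraries labelled SARATg vehicle. Group names below are those of the labels. Skin SARAWT PBS 1, PBS 2, bleomycin 1 and bleomycin 2 were counted on a longer gene list than the other skin libraries, and 7.38%, 55.5%, 17.6% and 22.1% of their barcodes also occurred in another skin library. Kidney SARAWT vehicle 3 stood apart from vehicle 1 and 2, with 833 proximal tubule cells against 6569 and 6830, and 3171 T cells and innate lymphoid cells against 317 and 385.

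In the GRCm38 assembly (GENCODE vM21), Gas6 (ENSMUSG00000031451) lies on the minus strand at chr8:13465374-13494490 and Pros1 (ENSMUSG00000022912) on the plus strand at chr16:62854307-62929346. Of the receptors, Axl (ENSMUSG00000002602) lies on the minus strand at chr7:25757273-25788705, Mertk (ENSMUSG00000014361) on the plus strand at chr2:128698956-128802894 and Tyro3 (ENSMUSG00000027298) on the plus strand at chr2:119797733-119818104. The 250 bases before the RefSeq start (GRCm38.p6) are shown for Gas6 and Axl, the ligand and the receptor on which the skin results turn. They lie at chr8:13494536-13494785 and chr7:25788734-25788983, are read 5′ to 3′ on the strand of the gene, and have in capitals each GC box (GGGCGG on either strand), a letter string to which Sp-family factors bind.
Gas6: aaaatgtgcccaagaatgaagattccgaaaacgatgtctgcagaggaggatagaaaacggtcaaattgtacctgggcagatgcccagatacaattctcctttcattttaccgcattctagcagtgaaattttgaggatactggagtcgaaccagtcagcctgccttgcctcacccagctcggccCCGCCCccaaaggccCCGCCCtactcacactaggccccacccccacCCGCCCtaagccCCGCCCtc
Axl: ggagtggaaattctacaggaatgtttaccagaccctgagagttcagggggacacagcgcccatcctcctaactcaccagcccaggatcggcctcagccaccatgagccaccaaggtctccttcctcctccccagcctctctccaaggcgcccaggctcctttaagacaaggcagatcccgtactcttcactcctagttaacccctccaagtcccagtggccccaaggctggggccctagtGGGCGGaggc
Gas6 held 4 GC boxes in this window, Axl 1, Pros1 5, Mertk 3 and Tyro3 3, and 32.7% of 32851 RefSeq promoter windows of that length held at least 1. The AP-1 letters TGANTCA were found in none of the 5 windows and in 6.75% of all windows. A match is a letter string, and binding was not measured here.

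In skin, each member had its own order of cell classes, taken over classes with at least 20 cells in at least 2 libraries. Gas6 was highest in stromal cells, with a mean of 523 ± 312 CPM (SD, n = 8 libraries), followed by macrophages and monocytes at 191 ± 202 CPM (n = 8). Endothelial cells (129 ± 29.0 CPM, n = 4) and keratinocytes (110 ± 42.4 CPM, n = 7) also held Gas6, whereas Schwann cells, dendritic cells and T cells held at most 7.55 CPM in any library. The ranges of neighbouring classes overlapped from stromal cells down to mural cells, and mural cells did not overlap the mast cells that came next.

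Pros1 was highest in Schwann cells, the glia of peripheral nerves, at 269 ± 61.7 CPM (n = 6), followed by endothelial cells at 186 ± 74.1 CPM (n = 4) and mast cells at 167 ± 31.9 CPM (n = 7). Stromal cells held Pros1 at 129 ± 34.0 CPM (n = 8). Ranges of neighbouring classes in this order overlapped, whereas the Schwann cell libraries (209 to 370 CPM) all lay above those of mast cells and stromal cells. With classes from clusters the Schwann cell mean was 178 ± 72.1 CPM, which overlapped mast cells as well. Mast cells held Pros1 at 121 to 191 CPM while their Gas6 stayed between 0 and 18.2 CPM.

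Among the receptors, Axl was at 205 ± 42.3 CPM (n = 8) in stromal cells, 190 ± 9.28 CPM (n = 3) in mural cells (pericytes and smooth muscle) and 172 ± 83.5 CPM (n = 6) in Schwann cells, with overlapping ranges. Mertk was highest in mural cells, at 86.5, 87.3 and 99.4 CPM in the 3 libraries with at least 20 such cells, all above the highest endothelial value of 60.3 CPM. In the other 5 libraries, with 4 to 12 mural cells, it was at 13.6 to 95.6 CPM. Tyro3 was highest in keratinocytes, at 23.9 ± 8.89 CPM (n = 7), followed by Schwann cells at 9.74 ± 5.21 CPM (n = 6), whose range overlapped that of keratinocytes. Stromal cells held Tyro3 at 4.41 ± 1.46 CPM and macrophages at most at 0.479 CPM.

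**Figure D1:**
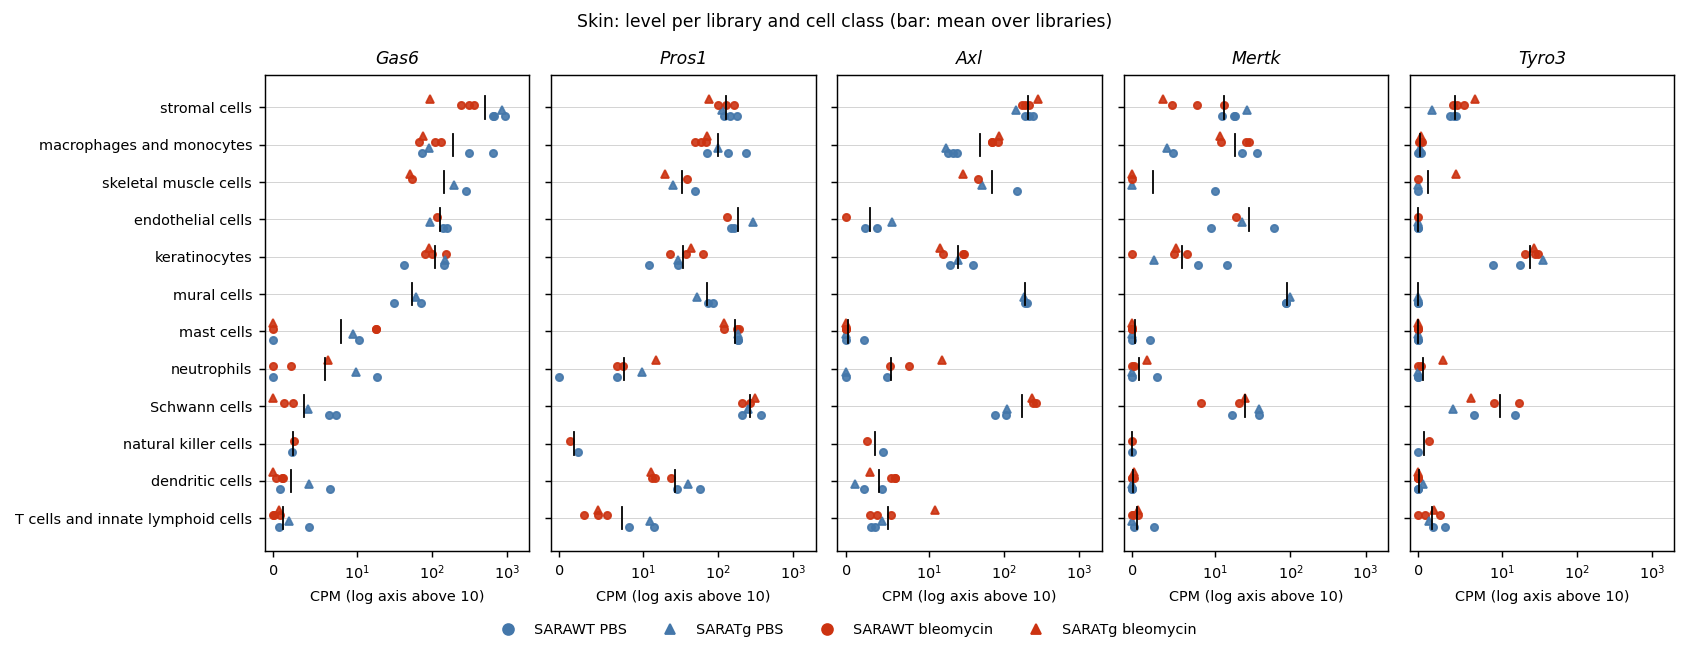
Level of each of the 5 genes in skin, 1 point per library and cell class with at least 20 cells (x axis, CPM, linear to 10 and logarithmic above), with colour for treatment, shape for genotype label and a bar for the mean. Gas6 was highest in stromal cells (mean 523 CPM), Pros1 in Schwann cells (269 CPM), Axl in stromal cells (205 CPM), Mertk in mural cells (91.1 CPM) and Tyro3 in keratinocytes (23.9 CPM).

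The comparison that chose the family is that of bleomycin with PBS in skin stromal cells. Gas6 was at 677, 959 and 655 CPM in the 3 SARAWT PBS libraries and at 244, 364 and 317 CPM in the 3 SARAWT bleomycin libraries. The groups did not overlap, and the fitted log2 difference was -1.30. In the libraries labelled SARATg, Gas6 was at 870 CPM after PBS and 94.9 CPM after bleomycin. Across all genes 3.68% of 11056 passed an adjusted p of 0.05 in this class, which is given as background only. The summed level of the 12 stromal markers was, like Gas6, lower after bleomycin. It was 48173, 63930 and 83688 CPM in SARAWT PBS and 24530, 43703 and 32821 CPM in SARAWT bleomycin, with 220947 and 22678 CPM in the SARATg libraries. Within SARAWT PBS the order differed, as PBS 3 had the highest sum and the lowest Gas6. Its part in the difference was not tested.

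The other members had overlapping SARAWT groups in stromal cells as a whole. Pros1 was at 121, 147 and 182 CPM after PBS and at 129, 162 and 102 CPM after bleomycin (SARATg: 112 and 76.6 CPM). Axl was at 214, 240 and 187 CPM after PBS and at 192, 175 and 213 CPM after bleomycin (SARATg: 142 and 281 CPM). Mertk was at 12.1, 17.9 and 18.3 CPM after PBS and at 4.83, 13.2 and 7.75 CPM after bleomycin (SARATg: 26.6 and 3.72 CPM), and Tyro3 lay between 1.60 and 6.76 CPM in all 8 libraries.

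Within the stromal cells, Gas6 was at a higher CPM in the adventitial subset than in the Cthrc1 subset. The adventitial subset held cells with Pi16, Dpp4 and other markers of fibroblasts that lie around vessels. In these cells Gas6 was at 1863, 1260 and 984 CPM in SARAWT PBS 1, 2 and 3 and at 1746, 681 and 1539 CPM in SARAWT bleomycin 1, 2 and 3 (17 cells in bleomycin 3). In the Cthrc1 subset, gated on Cthrc1, Postn and other genes of matrix-producing fibroblasts, Gas6 was at 104, 185 and 143 CPM after PBS and at 163, 171 and 85.8 CPM after bleomycin. The adventitial level was above the Cthrc1 level in 8 of 8 libraries, by 1.86 to 17.9 times. Within each subset the SARAWT treatment groups overlapped. In adventitial cells only bleomycin 1 (28 cells, median 1164 UMIs) and bleomycin 3 (17 cells) reached the PBS range. With each shared barcode kept only in the library where it was largest, bleomycin 1 also fell under 20 adventitial cells. Bleomycin 2, then the only SARAWT bleomycin library left, lay below every SARAWT PBS library in the values above. In the SARATg libraries both subsets were lower after bleomycin, at 906 and 438 CPM in adventitial and 488 and 80.3 CPM in Cthrc1 cells.

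The receptors differed between the subsets. In adventitial cells Axl was at 380, 270 and 184 CPM in SARAWT PBS and at 181, 160 and 140 CPM in SARAWT bleomycin, which did not overlap, whereas the SARATg libraries were at 141 CPM after PBS and 244 CPM after bleomycin. In the Cthrc1 subset Axl was at 143, 173 and 169 CPM after PBS and at 195, 186 and 233 CPM after bleomycin (SARATg: 232 and 287 CPM). Mertk in the Cthrc1 subset was at 9.93, 11.5 and 16.7 CPM after PBS and at 2.80, 6.80 and 4.26 CPM after bleomycin (SARATg: 24.4 and 2.90 CPM), on 2 to 44 UMIs in the SARAWT libraries. In adventitial cells Mertk was at 9.57, 21.1 and 19.1 CPM after PBS and at 36.2, 17.9 and 23.8 CPM after bleomycin, which overlapped, on 5 to 56 UMIs. In stromal cells of no subset it was at 12.9, 0 and 16.3 CPM after PBS and at 18.3, 20.2 and 17.4 CPM after bleomycin, on 0 to 10 UMIs. In these SARAWT values Axl was lower in the adventitial and higher in the Cthrc1 subset after bleomycin, where the class as a whole overlapped. The adventitial gap was narrow, 184 CPM in PBS 3 against 181 CPM in bleomycin 1, the latter on 25 UMIs in 28 cells. Bleomycin 3 had 17 adventitial cells, and the SARATg adventitial pair went the other way. None of these values carries a test, so opposite responses of the subsets are not established.

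The subsets changed their share of the UMIs of the class. Cthrc1 cells held 48.5%, 22.1% and 24.7% of stromal UMIs in SARAWT PBS and 91.8%, 53.0% and 72.7% in SARAWT bleomycin (SARATg: 4.23% and 92.1%). By cells their share was 30.6%, 38.9% and 22.3% after PBS and 56.1%, 39.8% and 56.6% after bleomycin (SARATg: 5.57% and 76.7%). PBS 2 and bleomycin 2 were thus close by cells. UMIs per cell differed too, with medians of 30266 in Cthrc1 and 1164 in adventitial cells of bleomycin 1. The gate reads the level of Cthrc1 and its companions, so a larger share of such cells and a higher level of those genes cannot be told apart. With the subsets weighted by their mean share in SARAWT PBS, Gas6 came to 1037, 818 and 600 CPM after PBS and 1009, 445 and 903 CPM after bleomycin, and these groups overlapped. Adventitial cells carried 52.1% of that weight, and the overlap came from bleomycin 1 and 3, with 28 and 17 such cells. The 2 SARATg libraries stayed apart on that scale, at 699 and 285 CPM.

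Shared barcodes bore on this value. With every shared barcode left out, Gas6 was at 823, 847 and 654 CPM in SARAWT PBS and at 600, 661 and 317 CPM in SARAWT bleomycin (43 and 67 cells in bleomycin 1 and 2). The groups then overlapped, and the log2 difference was -0.50. A shared barcode held 47.5, 15.8, 17.6 and 56.9 times more UMIs (medians for PBS 1, bleomycin 1, bleomycin 2 and PBS 2) in the library where it was largest. With each kept there alone, Gas6 was at 679, 1051 and 655 CPM after PBS and 237, 360 and 317 CPM after bleomycin, a log2 difference of -1.38.

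**Figure D2:**
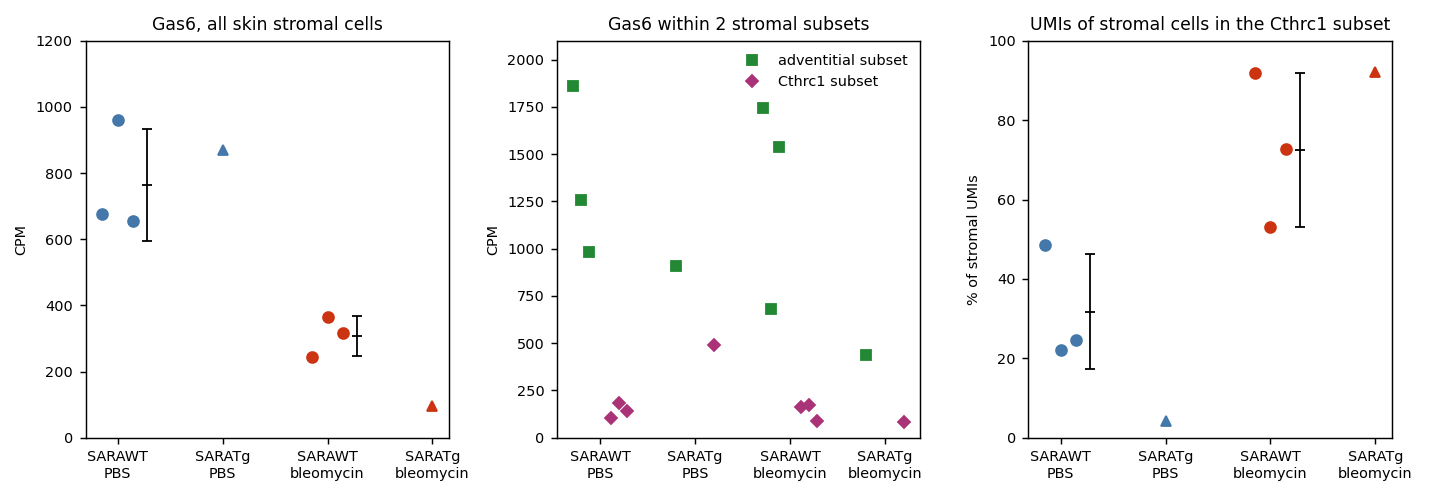
Gas6 in skin stromal cells (left, CPM per library), in the adventitial and Cthrc1 subsets (middle, CPM per library) and the share of stromal UMIs in the Cthrc1 subset (right, percent), with mean and SD where a group has 3 libraries in the outer panels. All SARAWT PBS values of the left panel (655 to 959 CPM) lay above all SARAWT bleomycin values (244 to 364 CPM), whereas within each subset these groups overlapped. In the adventitial subset that overlap came from bleomycin 1 and 3, with 28 and 17 cells.

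In skin macrophages and monocytes the receptor Axl rose with bleomycin. Axl was at 23.3, 18.1 and 20.7 CPM in SARAWT PBS 1, 2 and 3 and at 82.2, 68.3 and 69.1 CPM in SARAWT bleomycin 1, 2 and 3. The library labelled SARATg was at 16.8 CPM after PBS and 85.0 CPM after bleomycin, so that every bleomycin library lay above every PBS library. The log2 difference in SARAWT was 1.87 ± 0.18 (SE), with an adjusted p of 0.0274 by edgeR's quasi-likelihood test, in a class where 0.0601% of 11642 genes passed (0.0429% higher and 0.0172% lower). It was the 1 call among 15 tests of members outside stromal cells in this comparison, where 0.267% of all genes tested were called. Of the 15, 8 had an unadjusted p under 0.05, as had 9.39% of all genes tested in those classes. With 5 libraries the log2 difference kept within 1.80 to 1.93, but the adjusted p was 0.12 without PBS 1, 0.119 without PBS 2, 0.201 without bleomycin 1 and 0.161 without bleomycin 2. Without both SARAWT PBS libraries that go against their label it was 2.08, with an adjusted p of 0.227.

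Beside this rise stand the marker levels of the class in skin. The summed level of the 12 stromal markers in the macrophages was 156, 134 and 45.5 CPM in SARAWT PBS and 71.5, 42.7 and 38.7 CPM in SARAWT bleomycin (SARATg: 310 and 87.7 CPM), and its SARAWT groups overlapped. The summed level of the 14 macrophage markers was 12976, 13162 and 10184 CPM in SARAWT PBS and 16450, 16344 and 15119 CPM in SARAWT bleomycin (SARATg: 9579 and 15091 CPM). The macrophage sums were, like Axl, higher after bleomycin, and the part of either list in the difference was not tested.

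Axl passed the test in the macrophages with C1q as well. In these cells, macrophages with at least 2 of the C1q genes, which encode a complement component made by resident macrophages, Axl was at 27.0, 25.0 and 34.2 CPM after PBS and at 99.7, 92.1 and 99.9 CPM after bleomycin (SARATg: 33.6 and 113 CPM). Its log2 difference there was 1.81 ± 0.21 (adjusted p = 0.0342, edgeR, 0.109% of 10972 genes called, 0.0820% higher and 0.0273% lower). Leaving out PBS 1, PBS 2, bleomycin 1, bleomycin 2 or bleomycin 3 gave adjusted p-values of 0.147, 0.159, 0.221, 0.111 and 0.0555. The cells of neither subset were those outside both this subset and the monocytes with Ly6c2 or Chil3 and no C1q gene. They include cells with 1 C1q gene detected. In them Axl was at 8.79, 5.68 and 17.7 CPM after PBS and at 37.1, 37.9 and 37.5 CPM after bleomycin, values that were not tested.

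The ligands ran the other way in the same macrophages, without passing the test. In macrophages with C1q, Gas6 was at 874, 488 and 232 CPM after PBS and at 153, 224 and 126 CPM after bleomycin (SARATg: 295 and 124 CPM). These SARAWT groups did not overlap, but the log2 difference of -1.57 ± 0.42 had an adjusted p of 0.175 (edgeR). Same-numbered skin libraries deviated together, as did PBS 1 with bleomycin 2 in macrophages and monocytes. With the replicate number as a block the adjusted p was 0.0344 (edgeR). The numbers also follow the gene lists: on the longer list Gas6 was at 874 and 488 CPM against 153 and 224 CPM, and on the shorter list at 232 CPM against 126 CPM. With the list as a covariate, an alternative chosen after seeing the data, the adjusted p was 0.0229, and with DESeq2 it was 0.00578. Without PBS 3 the log2 difference was -1.86, with an adjusted p of 0.0185 (edgeR). The share of all genes that passed in these alternative fits is not given here, for Gas6 or for Pros1 below. Their adjusted p-values thus have no background beside them.

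Pros1 in macrophages with C1q was at 293, 168 and 101 CPM after PBS and at 55.1, 86.0 and 71.7 CPM after bleomycin (SARATg: 139 and 78.8 CPM). The groups did not overlap, and the log2 difference was -1.30 ± 0.35, with an adjusted p of 0.175 (edgeR), 0.0761 with the replicate block, 0.0488 with the gene list as covariate and 0.0236 without PBS 3. The engulfment receptor Mertk was at 48.5, 35.3 and 15.1 CPM after PBS and 36.8, 41.0 and 20.5 CPM after bleomycin, overlapping groups with a log2 difference of 0.09 ± 0.41. Within each SARAWT treatment, Mertk was lower in the library of the shorter list than in both libraries of the longer list.

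Gas6 and Mertk were nearly limited to the macrophages with C1q. In the cells of neither subset Gas6 was at 2.37 to 12.8 CPM and Mertk at 0 to 4.28 CPM over the 8 libraries, whereas Pros1 was at 38.5 to 85.4 CPM. The macrophages with C1q were 1098 of 1360, 126 of 184 and 384 of 1105 cells in SARAWT PBS and 666 of 938, 535 of 842 and 924 of 1751 cells in SARAWT bleomycin. Over the whole class Gas6 was at 648, 320 and 74.3 CPM after PBS and at 113, 133 and 67.8 CPM after bleomycin, with overlap and an adjusted p of 0.449 (edgeR).

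**Figure D3:**
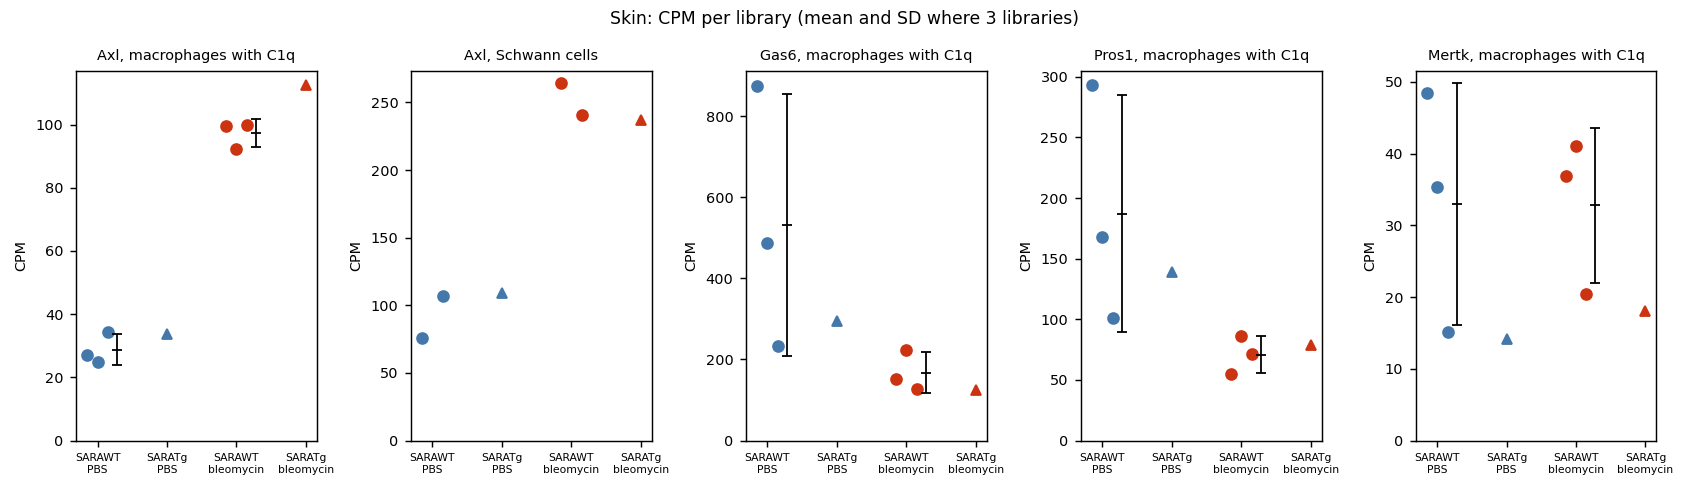
Axl, Gas6, Pros1 and Mertk in skin macrophages with C1q and Axl in Schwann cells (y axis, CPM; 1 point per library; mean and SD where a group has 3 libraries). Axl in macrophages with C1q was at 25.0 to 34.2 CPM in the 4 PBS libraries and 92.1 to 113 CPM in the 4 bleomycin libraries, and Mertk overlapped between treatments.

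In Schwann cells the adjusted p of Axl lay just outside the threshold. It was at 75.5 and 107 CPM in SARAWT PBS 1 and 3 (10 and 32 UMIs) and at 264 and 241 CPM in SARAWT bleomycin 1 and 3 (204 and 408 UMIs). Both of these PBS libraries go against their label, so in this comparison treatment and transgene cannot be told apart. The SARATg libraries were at 109 and 237 CPM, so all bleomycin libraries lay above all PBS libraries. The log2 difference was 1.53 ± 0.32, with an adjusted p of 0.0544 (edgeR), in a class where 1.50% of 6684 genes passed (0.374% higher and 1.12% lower). With the replicate block the adjusted p was 0.0038 (edgeR) and with DESeq2 0.0355, fits whose share of all genes passing is not given here. Stromal markers were high in this class and, like Axl, higher after bleomycin. Their sums were 8747 and 12857 CPM in the PBS libraries and 15612 and 20088 CPM in the bleomycin libraries (SARATg: 4797 and 16508 CPM). The part of stromal RNA in the difference was not tested.

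Other skin classes gave values without calls. In dendritic cells Pros1 was at 57.8 and 28.7 CPM in SARAWT PBS 1 and 3 and at 13.4, 14.5 and 23.7 CPM in SARAWT bleomycin (log2 difference -1.23 ± 0.38, adjusted p = 0.644, edgeR, 0% of 9309 genes called). In keratinocytes Tyro3 was at 17.4 and 8.99 CPM after PBS and at 27.9, 30.9 and 20.3 CPM after bleomycin (log2 difference 1.13 ± 0.46, adjusted p = 0.302, edgeR, 0.404% of 6923 genes called, 0.0433% higher and 0.361% lower). The groups did not overlap in either gene. Endothelial cells, mural cells and skeletal muscle cells reached 20 cells in too few SARAWT libraries for a test.

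The genotype comparison asked whether the SARATg label changed these levels, with 1 library per SARATg group and the gene list as a covariate. Among 70 tests of members over the main classes 1 passed, where 0.489% of all genes in the same tests were called. Of the 70, 6 had an unadjusted p under 0.05, as had 6.19% of all genes. The difference in drug effect in stromal cells was left out. SARATg against SARAWT in stromal cells was kept, with Gas6 among the members, although SARAWT values of Gas6 there chose the family. The call was not in that class, where 0% of 13412 genes were called. Tyro3 in keratinocytes was at 35.0 CPM in the library labelled SARATg PBS and at 17.4 and 8.99 CPM in the libraries labelled SARAWT PBS 1 and 3, a log2 difference of 1.96 ± 0.49 (adjusted p = 0.0369, edgeR, 3.28% of 11174 genes called). Both of these SARAWT libraries go against their label. The adjusted p was 0.682 without PBS 3, 0.31 without the covariate and 0.305 with DESeq2.

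Gas6 in stromal cells was lower after bleomycin in the SARATg library, at 94.9 CPM, than in the 3 SARAWT libraries, at 244 to 364 CPM. The SARAWT values are among those that chose the family, so the test of this comparison, counted above, is not used. Axl in macrophages was at 85.0 CPM in the SARATg bleomycin library and 68.3 to 82.2 CPM in the SARAWT bleomycin libraries, and no difference between genotype labels was detectable for it.

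In kidney the family was laid out over other classes. Gas6 was highest in endothelial cells, at 520 ± 124 CPM (n = 8), followed by proximal tubule at 271 ± 147 CPM (n = 9) and the thick ascending limb, and the ranges of neighbouring classes overlapped down the whole order. Pros1 was at 101 ± 48.1 CPM (n = 5) in intercalated cells of the collecting duct and at 87.5 ± 15.8 CPM (n = 8) in endothelial cells, with overlapping ranges. The intercalated mean was 41.5 CPM under the stricter filter on cells and 79.7 CPM with shared barcodes kept in 1 library, so the order of these classes is not settled. Proximal tubule, rich in Gas6, held Pros1 at 0.309 to 6.71 CPM.

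Among kidney classes with 20 cells in at least 2 libraries, Axl was highest in macrophages and monocytes, at 145 ± 18.6 CPM (n = 9, range 107 to 169 CPM), and did not overlap the next class, dendritic cells. Mertk was highest in endothelial cells, at 36.1 ± 14.0 CPM (n = 8), and overlapped macrophages at 24.1 ± 21.5 CPM (n = 9). Tyro3 had a mean of at most 2.40 CPM in the kidney classes other than the principal cells of the collecting duct, where it was at 12.0 to 39.0 CPM (6 to 15 UMIs, n = 5). Stromal cells reached 20 cells in 1 kidney library only, SARATg vehicle 2, where 39 cells held Axl at 315 CPM, above every macrophage value.

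**Figure D4:**
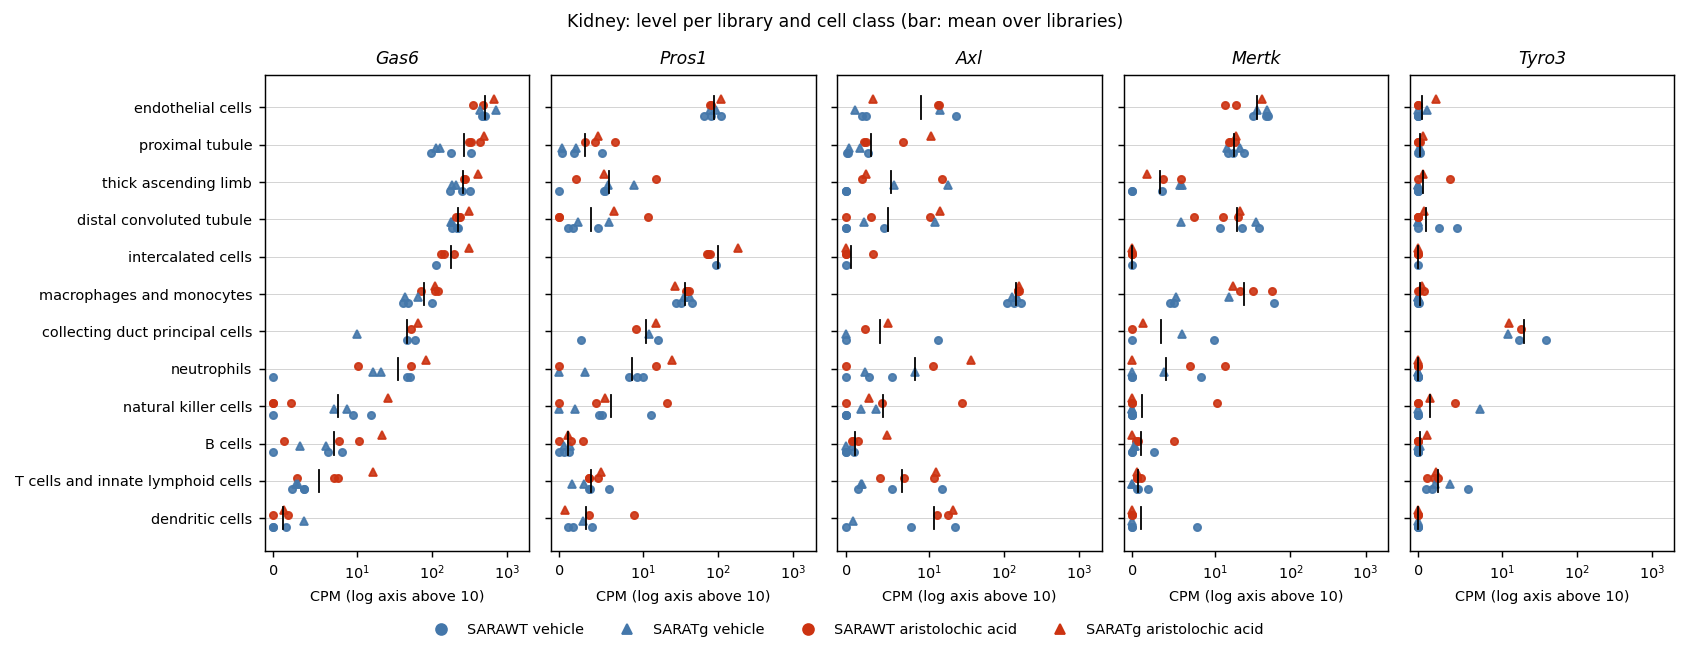
Level of each of the 5 genes in kidney, 1 point per library and cell class with at least 20 cells (x axis, CPM, linear to 10 and logarithmic above), with colour for treatment, shape for genotype label and a bar for the mean. Axl was at 107 to 169 CPM in macrophages and monocytes, Gas6 was highest in endothelial cells (mean 520 CPM), and Tyro3 was seen in principal cells of the collecting duct (mean 19.8 CPM).

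Aristolochic acid, compared with vehicle in SARAWT kidneys, gave no call among 25 tests of members by edgeR, with 2 at an unadjusted p under 0.05 (7.67% of all genes), and none by DESeq2. In each kidney class 0% of genes passed. Gas6 in proximal tubule was at 98.9, 182 and 333 CPM in SARAWT vehicle 1, 2 and 3 and at 330, 315 and 439 CPM in SARAWT aristolochic acid 1, 2 and 3. The SARATg libraries were at 115 and 129 CPM after vehicle and 500 CPM after aristolochic acid. Only vehicle 3 reached the range of the treated libraries, and the log2 difference was 0.58 ± 0.37 (adjusted p = 0.437, edgeR) with it and 1.09 ± 0.26 (adjusted p = 0.0521) without it, where 6.51% of all genes of the class passed.

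Macrophages and monocytes showed the same dependence on vehicle 3. Mertk was at 5.01, 4.60 and 60.5 CPM after vehicle and at 57.1, 20.9 and 31.4 CPM after aristolochic acid (SARATg: 5.21 and 15.2 CPM, then 17.3 CPM). The highest treated value, 57.1 CPM, is from aristolochic acid 1, which goes against its label. With both kidney libraries that go against their label left out and vehicle 3 kept, 0 of 22 member tests of the drug passed (edgeR). Without vehicle 3 the log2 difference in Mertk was 3.02 ± 0.60 (adjusted p = 0.0406, edgeR, 3.86% of all genes of the class called), and with it 0.41 ± 0.88. Gas6 was at 47.9, 41.1 and 101 CPM after vehicle and 71.8, 112 and 120 CPM after aristolochic acid, with an adjusted p of 0.0511 without vehicle 3, and 0.0283 in the macrophages with C1q alone, where 9.14% of all genes passed. Axl was at 136, 107 and 169 CPM after vehicle and 156, 151 and 155 CPM after aristolochic acid, overlapping groups. The summed level of the 12 proximal tubule markers in these cells was 594, 329 and 54.2 CPM after vehicle and 29.5, 330 and 53.5 CPM after aristolochic acid in SARAWT, and its part in the values was not tested.

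**Figure D5:**
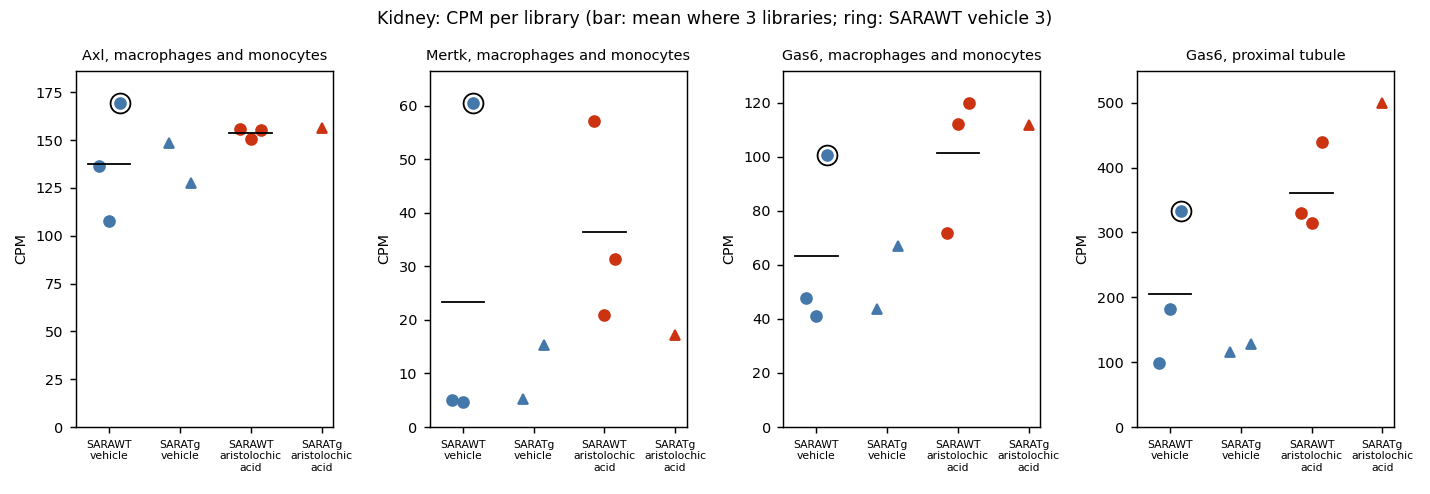
Axl, Mertk and Gas6 in kidney macrophages and monocytes and Gas6 in proximal tubule (y axis, CPM; 1 point per library; bar, mean where a group has 3 libraries; ring, SARAWT vehicle 3). Mertk in SARAWT vehicle 3 was at 60.5 CPM against 5.01 and 4.60 CPM in vehicle 1 and 2, and Gas6 in proximal tubule at 333 CPM against 98.9 and 182 CPM.

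Kidney endothelial cells held Mertk at 50.8, 47.8 and 31.6 CPM in SARAWT vehicle and at 18.8 and 13.6 CPM in SARAWT aristolochic acid 1 and 2. The last value is 1 UMI in 21 cells, so the order of the groups rests on aristolochic acid 1 (13 UMIs), and the log2 difference of -1.20 ± 0.42 did not pass (adjusted p = 0.949, edgeR). Between the genotype labels in kidney, none of 25 tests after vehicle and none of 50 tests after aristolochic acid or of the difference in drug effect passed by edgeR, with 2 and 4 at an unadjusted p under 0.05 (6.62% and 3.44% of all genes). DESeq2 gave no member call either. The library labelled SARATg aristolochic acid 1 held Zfyve9 at 19.5 CPM and that labelled SARAWT aristolochic acid 1 at 159 CPM. The 50 tests thus compare labels rather than transgene with none, and cannot decide on an effect of genotype. Across the main kidney classes at most 0.107% of genes were called after vehicle, and at most 0.0153% after aristolochic acid or for the difference in drug effect.

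The other genes of the pathway were taken from 7 lists of 58 genes in all. After bleomycin in SARAWT macrophages and monocytes, 0 of 52 tested genes passed by edgeR and 9 had an unadjusted p under 0.05 (10.0% of all genes of the class), with a median log2 difference of 0.07 against 0.00 over all genes. In stromal cells 1 of 46 was lower, Gulp1, an adaptor of engulfment receptors, at 67.3, 70.2 and 57.6 CPM after PBS and 31.2, 41.4 and 30.6 CPM after bleomycin. Over all genes of that class 1.60% were lower (3.68% in either direction), so 1 of 46 is near the background. In kidney after aristolochic acid, 0 of 53 passed in macrophages and monocytes and 0 of 55 in proximal tubule, with 5 and 7 at an unadjusted p under 0.05 (6.72% and 14.2% of all genes).

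Mfge8, a secreted protein that bridges phosphatidylserine to integrins, passed in the library labelled SARATg bleomycin against SARAWT bleomycin. In macrophages and monocytes it was at 86.5 CPM against 18.6, 14.3 and 12.1 CPM (log2 difference 2.82 ± 0.27, adjusted p = 0.0371, edgeR, 0.00743% of 13453 genes called). In T cells and innate lymphoid cells Mfge8 was at 99.3 CPM against 18.6, 18.8 and 22.6 CPM (adjusted p = 0.0128, edgeR, 0.132% of 10601 genes called), and in neutrophils at 459 CPM against 0 to 16.1 CPM (1.45% of 6620 genes called). The single SARATg bleomycin library carried each of these differences, and its neutrophils also held keratinocyte markers at 4767 CPM against 11.4 to 48.2 CPM in the SARAWT bleomycin libraries. The part of those cells in the result was not tested.

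Of the other lists, C1qa, C1qb and C1qc passed in distal convoluted tubule in SARATg vehicle against SARAWT vehicle, with C1qa at 207 and 182 CPM against 0, 1.94 and 9.29 CPM (0.0316% of 9502 genes called). Macrophage markers, which include these C1q genes, summed to 1297 and 1101 CPM in those tubule cells of the SARATg vehicle libraries. In SARAWT vehicle they summed to 230, 21.8 and 771 CPM. The part of macrophage RNA in the result was not tested. Lgals3, a galectin, passed in mast cells, where it was at 270 CPM in the SARATg PBS library against 244 and 884 CPM in SARAWT PBS 1 and 3, and at 527 CPM in the SARATg bleomycin library against 345, 254 and 1808 CPM in SARAWT bleomycin. With the gene list as covariate the log2 differences were -1.93 ± 0.47 (adjusted p = 0.0057, edgeR, 1.24% of 2831 genes called) and -1.51 ± 0.41 (adjusted p = 0.0361, edgeR, 0.600% called), although the SARATg library lay within the SARAWT values at both treatments. In keratinocytes Lgals3 was at 3023 CPM in the SARATg PBS library against 1297 and 1182 CPM in SARAWT PBS 1 and 3 (log2 difference 1.77 ± 0.41, adjusted p = 0.0217, edgeR), in the comparison where 3.28% of 11174 genes were called. SARAWT PBS 1 and 3 go against their label in these comparisons as well, and in that of Timp3 in keratinocytes. Each also rests on 1 SARATg library per treatment. Timp3, an inhibitor of the proteases that shed Axl and Mertk, differed in its response to bleomycin between the labels in keratinocytes (log2 difference 3.11 ± 0.77, adjusted p = 0.0494, edgeR, 1.78% of 11174 genes called).

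Genes among the 3 whose pattern was most like each member are given with Pearson's r of log2(CPM + 1) over 50 class sums in skin and 70 in kidney, which share libraries and classes. In skin these included Sectm1a for Gas6 (r = 0.88), BC003331 for Pros1 (r = 0.90), Itgb5 for Axl (r = 0.90), Rnase4 for Mertk (r = 0.85) and Kctd15 for Tyro3 (r = 0.94). They also included Flrt2 for Gas6, Evi5 and Cd81 for Pros1, Mmp14 and Efemp2 for Axl, Sash1 for Mertk, and Tead3 and Me1 for Tyro3. In kidney the leading genes were Zcchc14 for Gas6 (r = 0.90), Pmp22 for Pros1 (r = 0.85), Creb5 for Axl (r = 0.86), Rai14 for Mertk (r = 0.85) and Gata3 for Tyro3 (r = 0.65), with C1qa second for Axl (r = 0.83). The others were Pkd2 and Tns1 for Gas6, Mapk3 and Rras for Pros1, Ms4a6d for Axl, Rin2 and Sash1 for Mertk, and Ubash3a and Sidt1 for Tyro3.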

How the data were processed

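Sorted GFP+ cells of 8 skin and 9 kidney samples were profiled by 10x single cell 3′ v3 libraries. The authors deposited UMI counts per gene and barcode for each sample. The submitters' processing notes name mm10, Cell Ranger 3.0.2 and Seurat 2.3.4, whereas the matrix headers name Cell Ranger 4.0.0, 3.1.0 (skin) and 3.0.2 (kidney). Skin matrices came with 32286 or 31053 genes, and 30406 genes shared by both lists were used. No cell annotation was used.

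A cell needed 200 detected genes and no more than 20% of its UMIs on mitochondrial genes, and the top 0.8% of cells per 1000 cells by doublet score were left out. A cell was given a class when at least 3 markers of 1 fixed list were detected and that list led the next by at least 0.1 of its markers. Between 59.5% and 96.4% of cells per library were gated, and 70.1% to 98.8% of gated cells had the same name from clusters. UMIs were summed per library and class of at least 20 cells, and these sums entered a two-sided quasi-likelihood test in edgeR 4.0.16 (R 4.3.3) after its default filter on low counts and TMM scaling, with Benjamini-Hochberg adjustment over all genes of the class and a threshold of 0.05. The 6 SARAWT skin libraries were fitted alone, all 8 with the gene list as a covariate, and all 9 kidney libraries in 1 fit. A single SARATg library was assumed to vary like the other groups. Each error after ± is an SD over libraries for CPM and an SE for a log2 difference. The fits were tested on simulated data. Alternatives were DESeq2 1.42.0, no TMM factors, no low-count filter, no covariate, a replicate block, clusters in place of the gate, stricter cells, doublets kept, shared barcodes left out, and each library left out. Others were chosen after seeing the data: shared barcodes kept in 1 library, gene list as covariate, libraries against their label left out, macrophage subsets, equal weight per cell, each library left out of the skin genotype comparison, and all alternatives but DESeq2 for the kidney genotype comparison after aristolochic acid.

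The members and all gene lists were chosen with earlier results of these data known. The text names the 5 members in every class, pathway genes that passed the threshold above 20 CPM on average, and for each member the 3 genes of highest correlation (class sums of at least 50 cells, genes of at least 20 CPM in a class, pseudocount 1), of which 1 gene is not reported here. Same-numbered skin libraries correlated in their deviations from group means in stromal cells (r = 0.19, 0.19 and 0.36) and in macrophages and monocytes (r = 0.33, 0.24 and 0.60). In macrophages and monocytes PBS 1 with bleomycin 2 (r = 0.31) and PBS 2 with bleomycin 1 (r = 0.16) correlated as well. Numbers 1 and 2 were thus not clear pairs there, and number 3 also marks the shorter gene list. The main fits were unpaired, and the replicate block was an alternative only. Gene positions are those of GENCODE vM21 and upstream sequences those of RefSeq, where all 5 members matched.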

Additional observations from a re-analysis of the deposited data

How the results depend on the processing

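For skin, the share of all genes called is given for the main fits alone (0.267% after bleomycin outside stromal cells, 0.489% for genotype). Counts from the skin alternatives below thus have no such background. The count of member calls after bleomycin in SARAWT skin outside stromal cells was 1 of 15 tests by edgeR. It was 2 of 15 with DESeq2, 2 of 15 with the gene list as covariate and 2 of 15 with the replicate block. With no filter on low counts it was 3 of 33 and without shared barcodes 0 of 14. With each library left out it was 0 to 3, in 15 to 19 tests. Without both PBS libraries that go against their label only 4 tests could be run, so that count cannot be set beside the others. The log2 difference of Axl in macrophages and monocytes lay between 1.71 and 2.08 over 17 alternatives, with adjusted p-values from 8.46e-10 to 0.227. That call was lost with classes from clusters (adjusted p = 0.0711, edgeR), where the 1 call was Axl in Schwann cells, and without shared barcodes (0.0706). The count for genotype in skin, 1, was 0 with DESeq2 and 0 with no covariate for the gene list, and 0 to 2 with a library left out. The count for aristolochic acid, 0 of 25 tests, was 2 of 23 without SARAWT vehicle 3 (0 to 2 over the libraries left out). These were Mertk in macrophages and monocytes and Axl in proximal tubule (adjusted p = 0.0445, edgeR), classes in which 3.86% and 6.51% of all genes then passed. Axl in proximal tubule was low, at 0.124 to 10.7 CPM over 9 libraries, against 107 to 169 CPM in macrophages and monocytes. Both kidney genotype counts stayed at 0 in all alternatives run. Gas6 in stromal cells, at -1.30 on the log2 scale, was at -0.96 with classes from clusters, -1.64 without both PBS libraries that go against their label, -0.50 without shared barcodes and -0.68 as the mean over cells, and fell by 1.11 to 1.43 with each library left out. Mean Mertk in mural cells was 98.4 CPM and mean Pros1 in intercalated cells 41.5 CPM under the stricter filter on cells, against 91.1 and 101 CPM, and Pros1 in Schwann cells was 178 CPM with classes from clusters, against 269 CPM. Means without a call could change direction: Gas6 in the Cthrc1 subset was at 144 CPM after PBS and 140 CPM after bleomycin in SARAWT, and at 123 and 139 CPM with copies of shared barcodes left out. PBS 2 (185 CPM) then fell under 20 cells and left the mean. That mean rested on PBS 1 and 3, at 104 and 143 CPM in the main values, so the turn came with the loss of a library.

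The replicate block gave 2 calls in skin, Axl in macrophages (adjusted p = 0.0137, edgeR) and in Schwann cells (0.0038), and beside Gas6 in macrophages with C1q, given above, it changed no other member call in skin. In kidney the same number did not mark a pair (r from -0.24 to 0.34 for the same number), and the block gave 0 member calls. The causes of these shifts were not tested. Depth limits the mural values of Gas6 in skin (10 to 12 UMIs per library), Schwann Axl in SARAWT PBS 1 (10 UMIs), endothelial Mertk in kidney SARAWT aristolochic acid 2 (1 UMI), Mertk in the stromal subsets and Tyro3 in kidney principal cells (6 to 15 UMIs).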

Other observations

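Some values lie outside the comparisons. Kidney stromal cells reached 20 cells in SARATg vehicle 2 alone, where 39 cells held Gas6 at 262 CPM, Axl at 315 CPM and Pros1 at 56.9 CPM, with Mertk and Tyro3 at 0. Skin skeletal muscle cells, in 4 libraries, held Gas6 at 292 and 196 CPM in SARAWT PBS 3 and SARATg PBS 1 and at 54.7 and 51.2 CPM in SARAWT bleomycin 3 and SARATg bleomycin 1, each on 23 to 46 cells and without a test.

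Kidney monocytes with Ly6c2 or Chil3 and no C1q gene held Gas6 at 0 to 5.93 CPM in the 8 libraries other than SARATg aristolochic acid 1, where it was at 42.8 CPM. Against SARAWT aristolochic acid the log2 difference was 4.91 ± 0.93 (adjusted p = 0.0613, edgeR), in a class where 0.196% of 8669 genes passed. This library goes against its label.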
